A study of Mus musculus with 45 samples.

Results

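Mouse genes that encode activators of housekeeping and mitochondrial gene promoters were followed through GABPA degradation. They were chosen by symbol, as Nrf1, Yy1, Sp1, Hcfc1, Zfp143, Thap11, Pprc1, Esrra and Ppargc1b, and all 9 were found among the 55385 genes of the files. GABPA is an ETS-family transcription factor, and the study asked how it acts on the genome of the early embryo and on pluripotent cells. RNA-seq libraries of 4 kinds of sample were compared, each after dTAG13 or its vehicle DMSO. Both the DMSO and the dTAG13 samples carried the degron tag on both Gabpa alleles (Gabpa-dTAG/dTAG), and dTAG13 leads the tagged protein to degradation while its mRNA is still made. Embryos came from in vitro fertilization with females of 7 to 8 weeks and males of 8 to 12 weeks. Late two-cell embryos had been kept in 1 μM dTAG13, or in DMSO, between 6 and 30 h post fertilization (hpf), with 3 libraries a group. Morulae were treated from 42 hpf and the inner cell mass (ICM), labelled E4.5, from 84 hpf, each at 1 μM and with 2 libraries a group. The ICM was isolated from blastocysts by immunosurgery, which removes the trophectoderm (TE) and leaves a mixture of epiblast (EPI) and primitive endoderm (PrE). The study's text places the collection of these cells at the mid-blastocyst stage, earlier than the label E4.5, so the age of the ICM libraries is uncertain. ES cells, which carry the tag in a line picked as a single clone and were grown with MEK and GSK3 inhibitors and LIF (2iES cells), received 0.5 μM dTAG13 for 24 h, with 2 libraries a group. The study calls its replicates biological, but how many embryos or which cultures made a library is not given in the sources used here, so the p-values measure the spread between these libraries, part of which may be technical.

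Housekeeping promoters are typically rich in CpG and hold short sites for a small set of broadly expressed activators. NRF1 (nuclear respiratory factor 1), SP1 and YY1 bind such sites directly, as GABPA, also named NRF2, does. ZFP143 and THAP11 bind promoters of the same kind and recruit HCF-1, the product of Hcfc1, which has no DNA-binding domain of its own and brings histone-modifying enzymes. ERRα, the nuclear receptor made from Esrra, drives genes of oxidative metabolism together with the coactivators PGC-1β (from Ppargc1b) and PRC (from Pprc1), and PRC also works with NRF1. Several of these factors are known for roles in early development, NRF1 and YY1 among them, since embryos without either die around implantation.

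On GRCm38, with gene models of GENCODE M21, Nrf1 (ENSMUSG00000058440.14) lies on chromosome 6 from 30047988 to 30153458, Yy1 (ENSMUSG00000021264.12) on chromosome 12 from 108792973 to 108820148, and Sp1 (ENSMUSG00000001280.13) on chromosome 15 from 102406143 to 102436404. Zfp143 (ENSMUSG00000061079.14) lies on chromosome 7 from 110061217 to 110095394, Thap11 (ENSMUSG00000036442.8) on chromosome 8 from 105855132 to 105856950, and Hcfc1 (ENSMUSG00000031386.14) on the minus strand of chromosome X from 73942792 to 73966357. Pprc1 (ENSMUSG00000055491.14) and Esrra (ENSMUSG00000024955.15) are both on chromosome 19, from 46044886 to 46072915 and, on the minus strand, from 6910977 to 6921813. The library kits lose strand information, and reads from the exonic bases that Zfp143 (3.13%), Esrra (3.74%) and Pprc1 (2.82%) share with a neighbouring gene cannot be assigned with certainty. Between 0.0% and 3.47% of a member's 31-base words occur in transcripts of another gene.

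The promoters of 8 members were read from RefSeq sequence of GRCm38.p6, 250 bases before to 50 after the start site, in 10 windows, since Nrf1 and Zfp143 have 2 each. They were searched on both strands for exact letters. The ETS motif that GABPA binds (CCGGAAGT) was in the window of Thap11 alone among the members, 51 bases before the start site, and in 3.89% of 32851 windows of all genes. The YY1 motif AAGATGGC was found in Hcfc1 only, at 168 bases before and 25 after the start site, against 2.75% of all windows. The letters ACTACAA and TTCCCAG, which ZFP143 recognises, stood next to each other in Pprc1 only, at 140 and 133 bases before the start site, where 3.24% and 11.14% of all windows hold them singly. The SP1 motif GGGCGG, in 35.66% of all windows, was in a window of Nrf1, Yy1, Sp1, Zfp143, Thap11, Esrra and Hcfc1, 7 times in that of Yy1 and 4 times in that of Sp1. The NFY motif CCAATC, in 16.11% of all windows, was in the second window of Nrf1 and in both of Zfp143. The NRF1 motif (GCGCATGCG or CGCATGCGC, 1.75% of all windows) and the ERR motif TCAAGGTCA (0.42%) were in no member's window. A match is a string of letters and no measure of binding, and no binding file was used here. The windows below are those with the ETS, YY1 and ZFP143 letters, in capitals, and the first of Nrf1, which holds none of these and has no capitals. They lie at chr8:105854853-105855152 (plus strand, Thap11), chrX:73966308-73966607 (minus strand, Hcfc1), chr19:46056289-46056588 (plus strand, Pprc1) and chr6:30047738-30048037 (plus strand, Nrf1). The window of Pprc1 lies inside the gene model above, which starts further upstream.
Thap11: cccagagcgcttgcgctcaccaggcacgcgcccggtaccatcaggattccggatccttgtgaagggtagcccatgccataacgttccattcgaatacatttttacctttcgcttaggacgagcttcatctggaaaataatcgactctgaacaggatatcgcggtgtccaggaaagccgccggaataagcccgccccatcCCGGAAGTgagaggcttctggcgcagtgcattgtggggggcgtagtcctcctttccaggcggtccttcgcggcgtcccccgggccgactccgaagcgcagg
Hcfc1: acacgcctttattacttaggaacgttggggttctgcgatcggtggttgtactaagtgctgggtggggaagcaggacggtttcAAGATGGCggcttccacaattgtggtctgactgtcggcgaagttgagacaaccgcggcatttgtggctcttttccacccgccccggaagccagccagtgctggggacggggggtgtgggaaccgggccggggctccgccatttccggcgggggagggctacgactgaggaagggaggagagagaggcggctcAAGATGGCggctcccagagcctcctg
Pprc1: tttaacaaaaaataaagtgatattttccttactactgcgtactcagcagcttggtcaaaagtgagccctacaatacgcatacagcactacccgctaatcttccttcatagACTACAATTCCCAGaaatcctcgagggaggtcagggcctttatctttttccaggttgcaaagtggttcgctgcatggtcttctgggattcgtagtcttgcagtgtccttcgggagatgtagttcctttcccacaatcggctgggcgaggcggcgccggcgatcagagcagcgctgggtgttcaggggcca
Nrf1: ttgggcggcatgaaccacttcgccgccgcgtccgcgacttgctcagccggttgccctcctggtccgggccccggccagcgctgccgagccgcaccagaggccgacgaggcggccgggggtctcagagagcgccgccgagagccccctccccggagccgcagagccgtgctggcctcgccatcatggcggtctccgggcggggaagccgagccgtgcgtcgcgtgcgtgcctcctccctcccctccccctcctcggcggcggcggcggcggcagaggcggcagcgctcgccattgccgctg

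Libraries held 9457933 to 27660132 expected counts, and those of morulae (9457933 to 12382705) were the shallowest. The spread between replicate libraries was smallest in the ICM, at 1.62 (DMSO) and 1.69 (dTAG13) times the variance that counting alone gives, and largest between the DMSO libraries of 2iES cells, at 16.09 times. Changes of a given size were thus detected more readily in the ICM than elsewhere. Gabpa mRNA, from the targeted gene, had a mean FPKM (fragments per kilobase of transcript, scaled to library size) of 109.1 (DMSO) and 162.0 (dTAG13) in late two-cell embryos, 9.495 and 16.22 in morulae, 11.52 and 30.11 in the ICM, and 7.86 and 14.57 in 2iES cells. In counts the log2 fold changes of Gabpa were 0.52, 0.74, 0.95 and 0.93 in the same order. That of morulae did not pass edgeR's quasi-likelihood test (adjusted p = 0.152). In the ICM the mean transcript length given to Gabpa was 3804.1 bases with DMSO and 2971.2 with dTAG13, which makes its rise larger in FPKM than in counts. The loss of the protein cannot be read from these values. Of 7 TE markers, all were higher with dTAG13 in the ICM, where their summed TPM (a level per length that adds up to the same total in every library) was 66.7 to 72.7 in the DMSO libraries and 776 in both dTAG13 libraries. All 6 EPI markers were lower there, with a summed TPM of 397 to 408 against 247 to 248, and of 5 PrE markers 2 were lower and 3 higher, with a summed TPM of 221 to 230 against 295 to 297. In 2iES cells 2 EPI markers were lower and 1 was higher (summed TPM of 286 to 311 against 162 to 167), and PrE markers summed to at most 0.97. There 1 of 5 TE markers tested was lower, and 1 of 2 PrE markers and 1 of 3 two-cell stage markers tested were higher. Of 4 fibroblast markers 3 were lower in the ICM and 2 higher in 2iES cells. Of 3 oocyte markers 1 was lower in each of these samples. No TE, PrE or EPI marker changed in late two-cell embryos or morulae, and cumulus and granulosa markers summed to at most 0.24 TPM in every library.

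Before the embryo reached the blastocyst, none of the 9 genes passed the test. At the late two-cell stage all 9 could be tested and 0 changed (edgeR's quasi-likelihood test, adjusted p under 0.05), while 8.56% of the 17421 genes tested did, 7.24% being lower and 1.32% higher with dTAG13. None had an unadjusted p under 0.05 and DESeq2 called 0. Their median log2 fold change was 0.06, against 0.02 over all genes tested. In morulae 0 of 9 changed, against 0.366% of 13667 genes (0.205% lower and 0.161% higher), and DESeq2 called 0. Zfp143 alone had an unadjusted p under 0.05, and the median log2 fold change was -0.13 against -0.02. At these depths and spreads the 95% intervals of the log2 fold change still allow moderate changes, for example from -0.18 to 0.28 for Nrf1 at the late two-cell stage and from -0.41 to 0.57 in morulae.

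In the ICM 1 of the 9 genes was downregulated and 7 were upregulated by dTAG13, and Thap11 did not pass the test. Nrf1 was the downregulated gene, while Zfp143, Sp1, Yy1, Hcfc1, Pprc1, Esrra and Ppargc1b were upregulated. Over all 15840 genes tested, 38.5% were lower and 38.4% higher, so that most genes of the ICM passed the test in one direction or the other. The median log2 fold change of the 9 genes was 0.31, against 0.01 over all genes. With the stricter thresholds of the study, which also ask for a 2-fold change and a mean of 1 FPKM, read here as reached by the mean of either group, Ppargc1b alone was called, among the 12.1% of genes called higher. Its mean FPKM was 0.485 with DMSO and 1.095 with dTAG13, so this call depends on that reading. In such bulk libraries fewer cells of a type and less RNA per cell cannot be told apart. The study reports that EPI cells did not yet differ in number between the treatments at its mid-blastocyst collection. It chose that time to limit effects of a changed ratio of EPI to PrE cells. The part that the TE and EPI markers given above play in these changes was not tested here. DESeq2 called 5 of the 9 genes, losing Hcfc1, Pprc1 and Esrra, and a fit of all 18 libraries together, whose wider spread is shared by all stages, called Nrf1 and Zfp143 only.

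In 2iES cells 8 of the 9 genes could be tested, since Ppargc1b had at most 10 counts in a library. Nrf1 and Thap11 were downregulated and Sp1 was upregulated, while Yy1, Zfp143, Esrra, Hcfc1 and Pprc1 did not pass the test. Of 15511 genes tested, 28.1% were lower and 26.5% higher with dTAG13. Sp1 alone met the study's thresholds, as did 12.4% of genes in the upward direction. The median log2 fold change of the 8 genes was -0.04, against 0.03 over all genes. The number called in 2iES cells depended on single libraries when each was left out. In the edgeR fit of all 18 libraries Nrf1 (adjusted p = 0.000791), Thap11 (0.00143) and Sp1 (0.000353) kept the call in 2iES cells. Yy1 gained it there (0.00701), while the same fit kept only Nrf1 and Zfp143 in the ICM. Whether the calls in the ICM or those in 2iES cells are firmer thus depends on the fit.

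**Figure D1:**
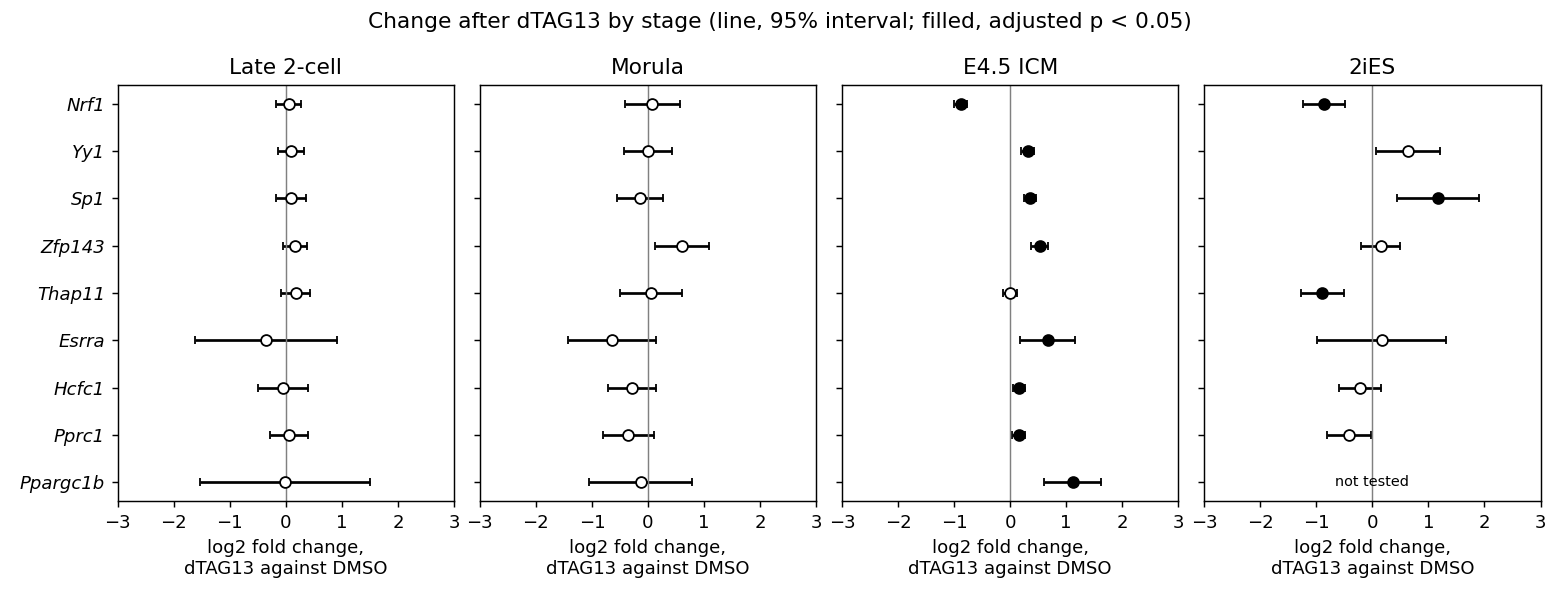
Log2 fold change (dTAG13 over DMSO, horizontal axis) of each of the 9 genes at each of the 4 stages, from edgeR with 95% intervals as bars; filled points passed the test at an adjusted p under 0.05. Nrf1 lies near -0.88 in the ICM and -0.86 in 2iES cells and near 0 before, Thap11 is low in 2iES cells only, and the ICM intervals are the narrowest.

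NRF1 binds GC-rich palindromes and activates nuclear genes for mitochondria and for cell growth. Nrf1 FPKM in the ICM was 56.06 and 54.97 (DMSO) and 29.56 and 29.48 (dTAG13). The dTAG13 libraries lay far below the DMSO libraries, and the count log2 fold change was -0.88 ± 0.06 (SE, n = 2 and 2, adjusted p = 7.85e-17). In 2iES cells Nrf1 FPKM was 29.35 and 22.33 (DMSO) and 13.89 and 13.37 (dTAG13), again without overlap. The log2 fold change there was -0.86 ± 0.16 (n = 2 and 2, adjusted p = 0.00391), and without dTAG13 replicate 2 it was -0.74 with an adjusted p of 0.0691. Nrf1 FPKM at the late two-cell stage was 64.32, 75.35 and 67.47 (DMSO) and 78.15, 82.63 and 70.72 (dTAG13), overlapping groups with a log2 fold change of 0.05 ± 0.10. In morulae it was 25.8 and 27.97 (DMSO) and 37.28 and 18.97 (dTAG13), and the dTAG13 libraries lay on either side of the DMSO libraries.

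Whether the dTAG13 effect on Nrf1 differed among the stages was tested over all 18 libraries. The interaction terms together gave an adjusted p of 0.00106. They passed for 3 of the 9 genes, Nrf1, Thap11 and Sp1, against 36.7% of 21915 genes. The log2 fold change of Nrf1 in the ICM was lower than that at the late two-cell stage by a difference of -0.91 (adjusted p = 0.00412) and than that in morulae by -1.04 (adjusted p = 0.00444). For 2iES cells the same differences were -0.85 (adjusted p = 0.00581) and -0.97 (adjusted p = 0.00546). Between 2iES cells and the ICM the difference was 0.07, with a 95% interval from -0.41 to 0.54, which does not show that the effects were equal.

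Genes that textbooks list as NRF1 targets (Cycs, Tfam, Tfb1m, Tfb2m, Polrmt, Alas1, Cox5b, Cox6a1 and Tomm20) were counted beside Nrf1. In the ICM 7 of 9 were lower and 1 was higher, with a median log2 fold change of -0.27 (0.01 over all genes). Over all genes 38.5% were lower there and 38.4% higher. In 2iES cells 3 were lower and 2 higher, near the shares of 28.1% and 26.5% over all genes. The median there was -0.17, against 0.03 over all genes. At the late two-cell stage, where Nrf1 itself did not pass the test, 3 of the 9 were lower and none higher, with a median of -0.35 (7.24% of all genes were lower and 1.32% higher), and in morulae none passed (median 0.16). Tfam, which encodes a factor that packages and transcribes mitochondrial DNA, was lower at the late two-cell stage (mean FPKM 13.3 ± 1.8 with DMSO and 4.13 ± 2.5 with dTAG13, SD, n = 3 and 3, log2 fold change -2.0, adjusted p = 0.00188), in the ICM (67.1 ± 4.3 and 28.9 ± 3.8, log2 fold change -1.06) and in 2iES cells (96.0 ± 4.8 and 42.4 ± 0.79, log2 fold change -1.13). Cox5b, a subunit of cytochrome c oxidase, had a log2 fold change of -0.64 at the late two-cell stage and of -0.71 in the ICM. Tfb1m, a methyltransferase of mitochondrial ribosomal RNA, had the largest change of the list in 2iES cells, from a mean FPKM of 22.2 ± 2.4 to 5.55 ± 1.0 (n = 2 and 2, log2 fold change -1.98).

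**Figure D2:**
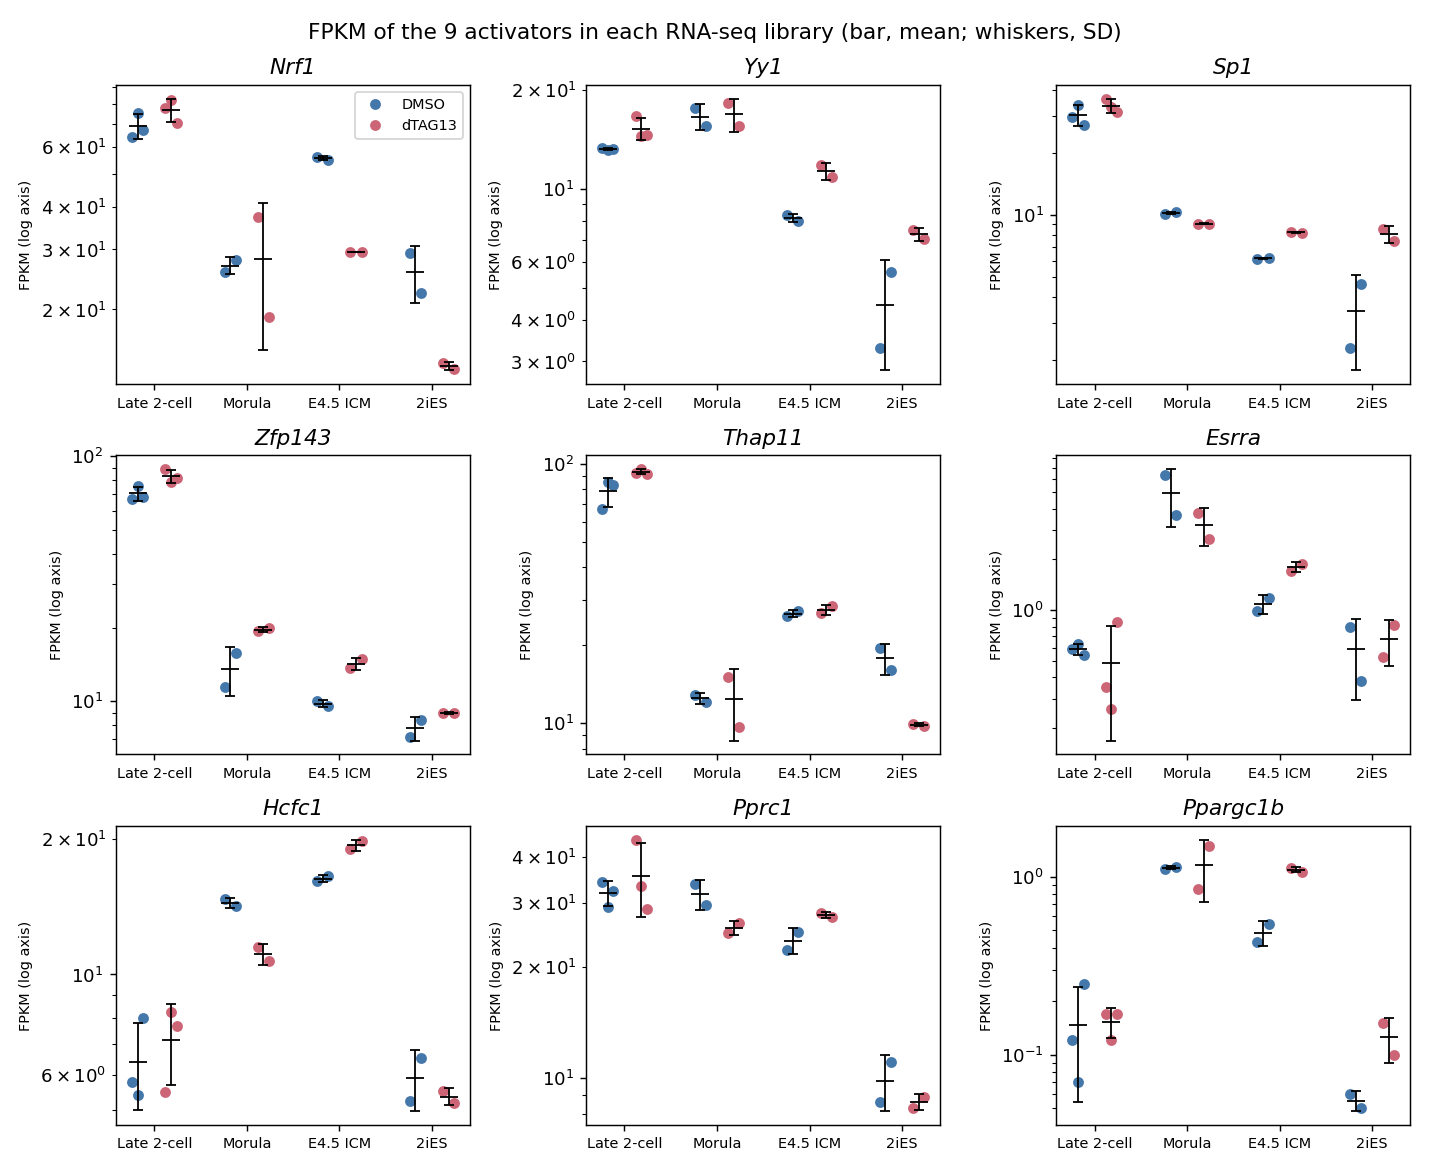
FPKM of each of the 9 genes in every library (vertical axis, log scale, a panel for each gene), by stage and treatment; each point is a library, and black bars and whiskers are the group mean and SD. Nrf1 drops with dTAG13 in the ICM (from 55.52 to 29.52 on average) and in 2iES cells (from 25.84 to 13.63), and most genes are highest at the late two-cell stage or in morulae.

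SP1 binds GC boxes and recruits the general transcription machinery. Sp1 FPKM in 2iES cells was 2.27 and 4.64 (DMSO) and 8.6 and 7.53 (dTAG13). Both dTAG13 libraries were above both DMSO libraries, which themselves differed widely. The log2 fold change was 1.17 ± 0.31 (SE, n = 2 and 2, adjusted p = 0.0165). It was 0.71 without DMSO replicate 1 and 1.74 without DMSO replicate 2, and with limma on log2(FPKM + 0.1) the adjusted p was 0.063. In the ICM Sp1 FPKM was 6.16 and 6.19 (DMSO) and 8.28 and 8.2 (dTAG13), a smaller step between tightly grouped libraries (log2 fold change 0.35 ± 0.05, adjusted p = 3.45e-07). Late two-cell groups overlapped, at 27.22 to 34.12 with DMSO and 31.58 to 36.53 with dTAG13. In morulae Sp1 FPKM was 10.12 and 10.34 (DMSO) and 9.03 and 9.1 (dTAG13), with a log2 fold change of -0.15 that did not pass the test. The effect in 2iES cells exceeded that at the late two-cell stage by 1.14 (adjusted p = 0.0072) and that in morulae by 1.29 (adjusted p = 0.00693). Against the ICM the difference of 0.86 did not pass (95% interval from 0.20 to 1.52, adjusted p = 0.0693). The interaction of Sp1 over all stages (adjusted p = 0.0114) was lost without dTAG13 replicate 1 of 2iES cells, at 0.0633.

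The length that RSEM gave Sp1 differed between the late two-cell libraries and all others. RSEM weights a gene's length by the isoforms to which it assigns reads, and the Sp1 gene has a 7754-base and a 3134-base protein-coding transcript among its 6 isoforms. The weighted length was 3785 to 4315 bases in the 6 late two-cell libraries (mean 4114) and 6943 to 7754 bases in the other 12 (mean 7628), a ratio of 0.539 with no overlap. DMSO and dTAG13 libraries were alike in this at the late two-cell stage, with means of 4084.5 and 4143.4 bases. For the other 8 genes the ratio lay between 0.956 (Yy1) and 1.093 (Pprc1), and Thap11, with 1 isoform of 1819 bases, had a ratio of 1.000. A shorter length raises FPKM for the same count, so the fall of Sp1 from the late two-cell stage to the morula looked larger in FPKM, from 30.39 to 10.23, than in counts, where the log2 fold change was -0.63. Isoforms were not measured separately here, and stage and library batch cannot be told apart.

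**Figure D3:**
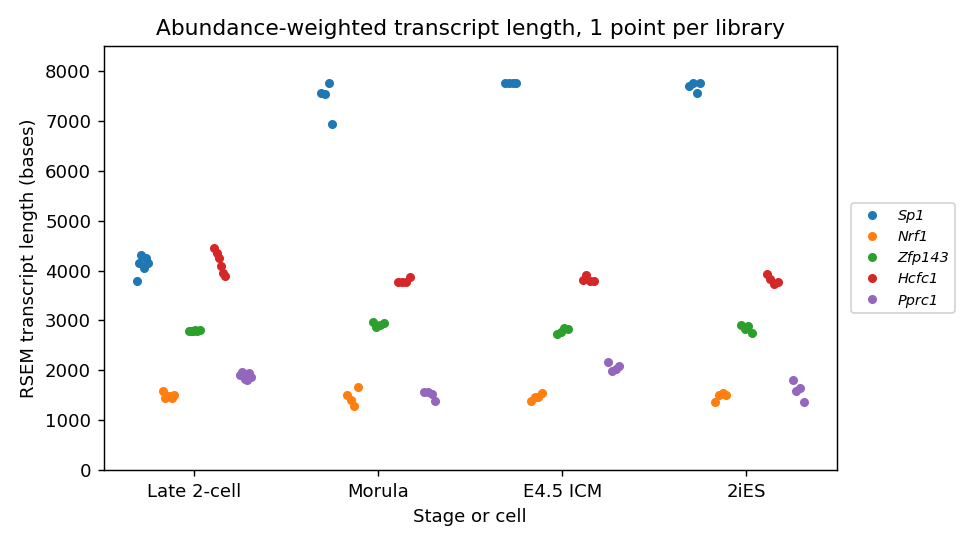
RSEM-weighted length in bases (vertical axis, from 0) of Sp1, Nrf1, Zfp143, Hcfc1 and Pprc1 in every library, by stage. The 6 late two-cell libraries of Sp1 lie at 3785 to 4315 bases and the other 12 at 6943 to 7754, while Nrf1, Zfp143, Hcfc1 and Pprc1 show no such gap between the late two-cell libraries and all others.

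YY1 is a zinc finger protein that binds promoters and enhancers and is part of the INO80 chromatin remodelling complex. Yy1 FPKM in the ICM was 8.36 and 8.03 (DMSO) and 11.8 and 10.87 (dTAG13), above the DMSO libraries in both cases (log2 fold change 0.31 ± 0.05, SE, n = 2 and 2, adjusted p = 3.17e-06). In 2iES cells it was 3.3 and 5.61 (DMSO) and 7.53 and 7.05 (dTAG13). These groups did not overlap either, but the DMSO libraries lay far apart, and the log2 fold change of 0.64 ± 0.24 missed the threshold (95% interval from 0.07 to 1.21, adjusted p = 0.0585). It passed under 7 of 10 other settings, for example with DESeq2 (adjusted p = 0.0142) and in the fit of all 18 libraries (adjusted p = 0.00701), but not with library totals (0.0503) or with limma on log2(FPKM + 0.1) (0.121) and log2(FPKM + 1) (0.119), so the call on Yy1 in 2iES cells rests on the method. Yy1 FPKM in late two-cell embryos was 13.29, 13.14 and 13.27 (DMSO) and 16.65, 14.55 and 14.58 (dTAG13), higher in each dTAG13 library, while the count log2 fold change was 0.10 ± 0.11 and did not pass. In morulae it was 17.64 and 15.56 (DMSO) and 18.27 and 15.52 (dTAG13). The interaction over the stages did not pass for Yy1 (adjusted p = 0.149), though without DMSO replicate 2 of 2iES cells the adjusted p was 0.00256.

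The other 13 subunits of INO80 were counted against the shares over all genes. At the late two-cell stage 5 of 13 were lower and none higher (median log2 fold change -0.43, against 0.02 over all genes, of which 7.24% were lower and 1.32% higher), in morulae none passed (median -0.13), in the ICM 7 were lower and 4 higher (median -0.69, with 38.5% of all genes lower and 38.4% higher), and in 2iES cells 5 were lower and 1 higher (median -0.27, with 28.1% and 26.5% of all genes). Ino80c, a nuclear subunit of the complex, had a mean FPKM of 36.5 ± 2.7 with DMSO and 10.3 ± 1.4 with dTAG13 in the ICM (SD, n = 2 and 2, log2 fold change -2.24, adjusted p = 1.59e-26) and of 25.9 ± 1.6 and 5.28 ± 0.80 in 2iES cells (log2 fold change -2.69, adjusted p = 0.000128). Actr5, an actin-related subunit, went the other way in the ICM, from 1.54 ± 0.15 to 8.62 ± 0.39 (log2 fold change 2.50). In 2iES cells Mcrs1, which is also found in other chromatin complexes, had a mean FPKM of 56.5 ± 12 with DMSO and 3.29 ± 0.078 with dTAG13 (log2 fold change -4.38). Ruvbl2, an AAA+ ATPase shared with other complexes, fell at the late two-cell stage from 58.0 ± 9.4 to 16.1 ± 0.14 (n = 3 and 3, log2 fold change -1.95), and Ino80b had a log2 fold change of -1.50.

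ZFP143 and THAP11 are DNA-binding proteins that share promoters and the cofactor HCF-1. Thap11 FPKM in 2iES cells was 19.56 and 16.12 (DMSO) and 9.97 and 9.79 (dTAG13). The dTAG13 libraries were the lower ones without overlap, with a log2 fold change of -0.89 ± 0.16 (SE, n = 2 and 2, adjusted p = 0.00415). It was -0.81 without dTAG13 replicate 1 (adjusted p = 0.0518) and -0.80 without dTAG13 replicate 2 (adjusted p = 0.0562). In the ICM, by contrast, Thap11 FPKM was 25.92 and 27.04 (DMSO) and 26.62 and 28.28 (dTAG13). These libraries overlapped, and the log2 fold change of -0.01 had a 95% interval from -0.13 to 0.12, which leaves out a change of the size seen in 2iES cells. Its FPKM in late two-cell embryos was 67.09, 85.4 and 82.85 (DMSO) and 92.43, 95.68 and 91.94 (dTAG13) (log2 fold change 0.18 ± 0.12), and in morulae 12.92 and 12.08 against 15.1 and 9.69. The promoter window of Thap11 is the one printed above with the ETS letters.

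The effect on Thap11 differed among the stages (interaction, adjusted p = 0.00921). Its log2 fold change in 2iES cells was lower than that at the late two-cell stage by a difference of -0.99 (adjusted p = 0.00371), than that in morulae by -0.96 (adjusted p = 0.0125) and than that in the ICM by -0.83 (adjusted p = 0.0284). The last of these is the least firm. It was lost without DMSO replicate 1 (adjusted p = 0.0735), DMSO replicate 2 (0.0562) or dTAG13 replicate 2 (0.0708) of the ICM, and without DMSO replicate 1 (0.113), dTAG13 replicate 1 (0.0696) or dTAG13 replicate 2 (0.0922) of 2iES cells. The difference from morulae was lost without dTAG13 replicate 1 of morulae (0.102) and without DMSO replicate 1 of 2iES cells (0.0567). The interaction of Thap11 itself was lost without DMSO replicate 1 of 2iES cells (0.0593) and without dTAG13 replicate 2 of 2iES cells (0.0585).

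Zfp143 FPKM in the ICM was 10.0 and 9.6 (DMSO) and 13.69 and 14.82 (dTAG13), higher in both dTAG13 libraries (log2 fold change 0.53 ± 0.07, SE, n = 2 and 2, adjusted p = 3.89e-08). In morulae it was 11.4 and 15.75 (DMSO) and 19.3 and 19.94 (dTAG13). Here too the groups did not overlap, with a log2 fold change of 0.60 ± 0.22, but the adjusted p of 0.269 did not pass. It was 0.0441 without DMSO replicate 2 of morulae and 0.024 in the fit of all 18 libraries. In 2iES cells Zfp143 FPKM was 7.16 and 8.39 (DMSO) and 9.0 and 8.93 (dTAG13) (log2 fold change 0.15 ± 0.15, not past the test), and at the late two-cell stage it was 67.15, 75.92 and 68.46 against 88.74, 78.88 and 81.3 (log2 fold change 0.17 ± 0.10, not past the test). The dTAG13 libraries of Zfp143 thus lay above the DMSO libraries in FPKM at all 4 stages. FPKM over all genes also shifted with dTAG13. By limma on log2(FPKM + 0.1) the median log2 fold change was 0.102 in late two-cell embryos and -0.085 in morulae. It was 0.089 in the ICM and 0.159 in 2iES cells, so for Zfp143 the small steps outside morulae and the ICM are hard to read. The count test passed in the ICM only, and the interaction did not pass (adjusted p = 0.102).

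HCF-1 changed little at the level of its mRNA. Hcfc1 FPKM in the ICM was 16.1 and 16.52 (DMSO) and 18.94 and 19.75 (dTAG13). The step was small and the libraries did not overlap (log2 fold change 0.15 ± 0.05, SE, n = 2 and 2, adjusted p = 0.00619), and it did not pass with DESeq2 (adjusted p = 0.111) or without DMSO replicate 1 (log2 fold change 0.08, adjusted p = 0.246). Hcfc1 FPKM in late two-cell embryos was 5.41 to 8.01 with DMSO and 5.49 to 8.25 with dTAG13, in morulae 14.67 and 14.16 against 11.51 and 10.69, and in 2iES cells 5.24 and 6.53 against 5.52 and 5.19. None of these passed the test, although in 2iES cells the log2 fold change of -0.22 became -0.38 without DMSO replicate 1 (adjusted p = 0.0205). Of 14 partners of HCF-1, among them the methyltransferases Setd1a and Kmt2a and the core subunits Ash2l, Wdr5, Rbbp5 and Dpy30, 3 were lower and none higher at the late two-cell stage, 1 was lower in morulae, 8 were lower and 4 higher in the ICM, and 4 were lower and 2 higher in 2iES cells, with medians of -0.18, -0.13, -0.17 and 0.04. Over all genes the shares lower and higher were 7.24% and 1.32% in late two-cell embryos, 0.205% and 0.161% in morulae, 38.5% and 38.4% in the ICM, and 28.1% and 26.5% in 2iES cells. Wdr5, a WD-repeat subunit, had a mean FPKM of 66.4 ± 1.5 with DMSO and 36.6 ± 0.60 with dTAG13 in the ICM (SD, n = 2 and 2, log2 fold change -0.93) and of 39.1 ± 4.0 and 21.1 ± 0.82 in 2iES cells (log2 fold change -0.92). Ash2l was lower in the ICM (log2 fold change -0.89), and Cxxc1 (-1.40) and Creb3 (-1.33) were lower at the late two-cell stage. Ogt, the enzyme that adds GlcNAc to HCF-1 and cleaves it, rose in 2iES cells from 11.3 ± 4.2 to 31.3 ± 3.0 (log2 fold change 1.23, adjusted p = 0.00667).

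Esrra and Ppargc1b, which encode ERRα and PGC-1β, had the lowest FPKM of the members. Ppargc1b (ENSMUSG00000033871.14) lies on the minus strand of chromosome 18 from 61298136 to 61400431. Its FPKM in the ICM was 0.43 and 0.54 (DMSO) and 1.12 and 1.07 (dTAG13), with both dTAG13 libraries above both DMSO libraries (log2 fold change 1.12 ± 0.25, SE, n = 2 and 2, adjusted p = 0.000126). It rested on mean expected counts of 33.5 and 70.5. In 2iES cells Ppargc1b held 6 and 5 counts with DMSO and 10 and 7 with dTAG13 and was not tested, and at the late two-cell stage it stayed between 0.07 and 0.25 FPKM. In morulae Ppargc1b FPKM was 1.11 and 1.14 (DMSO) and 0.85 and 1.49 (dTAG13). Esrra FPKM in the ICM was 0.99 and 1.19 (DMSO) and 1.72 and 1.89 (dTAG13) (log2 fold change 0.67 ± 0.24, adjusted p = 0.0128), a change that did not pass with DESeq2 (0.133) or without DMSO replicate 1 (log2 fold change 0.49, adjusted p = 0.151). In morulae it went the other way without passing, with 6.31 and 3.65 with DMSO and 3.78 and 2.64 with dTAG13 (log2 fold change -0.64, 95% interval from -1.42 to 0.14). In 2iES cells Esrra FPKM was 0.38 and 0.8 against 0.53 and 0.82, and at the late two-cell stage it was 0.26 to 0.85 over all libraries.

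Pprc1 FPKM in the ICM was 22.3 and 24.98 (DMSO) and 28.18 and 27.37 (dTAG13). The libraries did not overlap, but the log2 fold change of 0.16 ± 0.06 (SE, n = 2 and 2, adjusted p = 0.0127) did not pass with DESeq2 (0.154), with limma on log2(FPKM + 1) (0.0628), without DMSO replicate 1 (0.217) or without DMSO replicate 2 (0.0819). In 2iES cells Pprc1 FPKM was 8.62 and 11.03 against 8.29 and 8.9, and the log2 fold change of -0.42 ± 0.17 missed the threshold (adjusted p = 0.0726), though it passed without DMSO replicate 1 (0.0172) and without DMSO replicate 2 (0.043). In morulae it was 33.75 and 29.48 (DMSO) and 24.81 and 26.46 (dTAG13) (log2 fold change -0.35, not past the test), and at the late two-cell stage the groups overlapped between 28.76 and 44.53. The 11 textbook targets of ERRα and PGC-1 that were counted are mostly enzymes of the citric acid cycle and respiration. In the ICM 3 were lower and 7 higher (median log2 fold change 0.19), and in 2iES cells 6 were lower and 1 higher (median -0.34). Over all genes 38.5% were lower and 38.4% higher in the ICM (median 0.01). In 2iES cells these shares were 28.1% and 26.5% (median 0.03). None of the 11 tested at the late two-cell stage and none of the 10 tested in morulae passed, against 8.56% and 0.366% of all genes. Cycs, which encodes cytochrome c and is also on the list of NRF1 targets, was higher both in the ICM (mean FPKM 101 ± 0.86 with DMSO and 167 ± 2.7 with dTAG13, SD, n = 2 and 2, log2 fold change 0.56) and in 2iES cells (201 ± 29 and 358 ± 11, log2 fold change 0.71). Mfn2, a protein of mitochondrial fusion, was higher in the ICM (log2 fold change 0.70), and Idh3a, a subunit of isocitrate dehydrogenase, was lower in 2iES cells (log2 fold change -0.81).

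Paralogs of the members and further activators of such promoters were counted in the same way. Of the paralogs, 1 of 14 tested was lower at the late two-cell stage and none of 12 passed in morulae. In the ICM 7 of 14 were lower and 4 higher, and in 2iES cells 4 of 14 were lower and 4 higher. The medians were 0.03, -0.01, -0.10 and -0.01. Over all genes the shares lower and higher were 7.24% and 1.32% at the late two-cell stage and 0.205% and 0.161% in morulae. They were 38.5% and 38.4% in the ICM and 28.1% and 26.5% in 2iES cells, where the paralog counts lie near them. Thap7, a paralog of Thap11, was lower at the late two-cell stage (mean FPKM 37.2 ± 6.0 with DMSO and 15.8 ± 0.27 with dTAG13, SD, n = 3 and 3, log2 fold change -1.34) and in 2iES cells (34.4 ± 7.0 and 14.3 ± 1.3, n = 2 and 2, log2 fold change -1.39). In the ICM Yy2, an X-linked retrocopy of Yy1, was lower (log2 fold change -2.18), and Hcfc2, a paralog of Hcfc1, was higher (1.41). Sp2, a paralog of Sp1, rose in 2iES cells from 6.00 ± 0.99 to 19.5 ± 0.76 (log2 fold change 1.66). Of 17 further activators, 1 was higher at the late two-cell stage, 1 was higher in morulae, 5 were lower and 9 higher in the ICM, and 6 were lower and 6 higher in 2iES cells, with medians of -0.05, 0.13, 0.37 and 0.10. The gene that passed in both early samples was Gabpb1, which encodes the partner subunit of GABPA, with log2 fold changes of 0.65 at the late two-cell stage, 1.28 in morulae, 1.33 in the ICM and 2.10 in 2iES cells. E2f4, a cell cycle factor of the E2F family, fell from 71.0 ± 1.7 to 3.6 ± 0.91 in the ICM (log2 fold change -4.32) and from 86.1 ± 21 to 2.62 ± 0.064 in 2iES cells (log2 fold change -5.33). Elk4, another ETS factor, had a mean FPKM of 2.23 ± 0.18 with DMSO and 0.025 ± 0.035 with dTAG13 in the ICM (adjusted p = 2.21e-10).

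**Figure D4:**
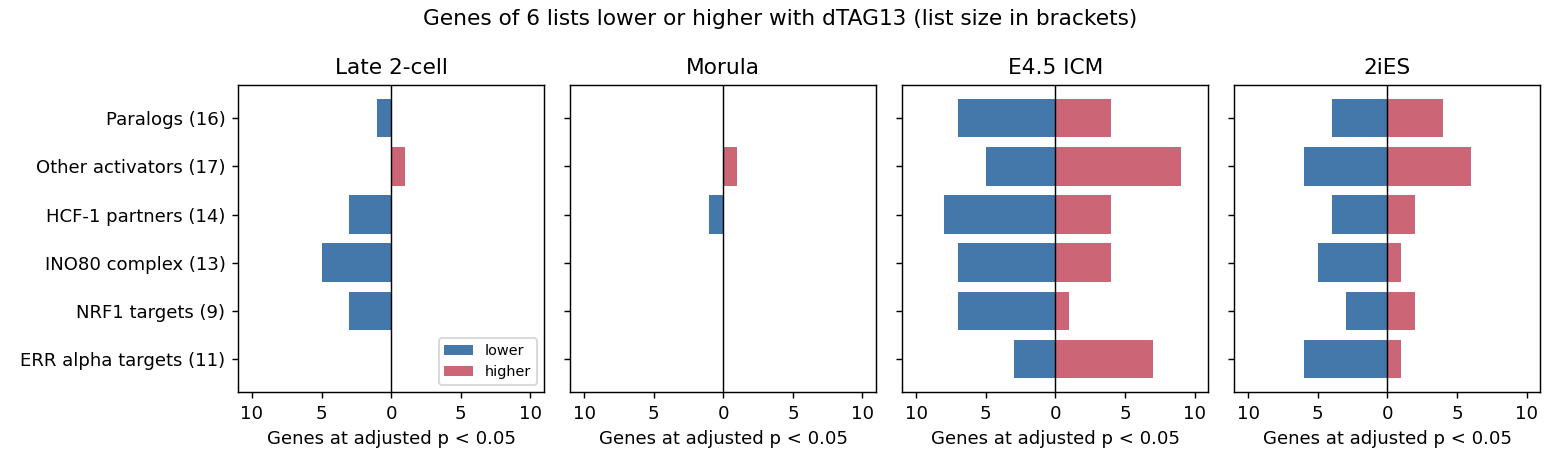
Number of genes of each list that were lower (drawn to the left) or higher (to the right) with dTAG13 at an adjusted p under 0.05, by stage. The counts are largest in the ICM, for example 7 lower and 4 higher of 13 INO80 subunits. Over all genes 38.5% were lower and 38.4% higher there. At most 1 gene of a list passed in morulae.

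Without GABPA degradation the 9 genes already differed between the samples, in levels that are relative to each library and give no amount per embryo or cell. All 9 differed among the 4 kinds of DMSO sample, as did 90.8% of 19830 genes, so that a difference of this kind was common to most genes. In FPKM the highest members were Thap11 (78.45 ± 9.92, SD, n = 3), Zfp143 (70.51 ± 4.73) and Nrf1 (69.05 ± 5.68) at the late two-cell stage, Pprc1 (31.62 ± 3.02, n = 2) in morulae, and Nrf1 in the ICM (55.52 ± 0.77) and in 2iES cells (25.84 ± 4.96). The order at the late two-cell stage is not resolved among those 3 genes, whose spreads overlap. Ppargc1b was the lowest member at every stage and Esrra the next lowest. The ratio of the highest to the lowest stage mean ran from 2.67 for Nrf1 and 2.77 for Hcfc1 to 9.07 for Zfp143 and 20.45 for Ppargc1b, the last from 1.125 FPKM in morulae to 0.055 in 2iES cells.

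Between the late two-cell stage and the morula 4 members were lower and 3 higher in counts (38.0% and 31.2% of all genes). Thap11 (log2 fold change -2.62), Zfp143 (-2.27), Nrf1 (-1.38) and Sp1 (-0.63) were lower, and Esrra (3.16), Ppargc1b (2.94) and Hcfc1 (0.99) were higher. Yy1 and Pprc1 did not pass, with log2 fold changes of 0.44 (adjusted p = 0.064) and -0.28 (adjusted p = 0.123). Sp1 lost the call without either DMSO library of morulae (adjusted p of 0.168 and 0.122 without replicates 1 and 2) and without late two-cell DMSO replicate 2 (0.0853), and Yy1 gained it without either DMSO library of 2iES cells (0.0104 and 0.0107 without replicates 1 and 2). From the morula to the ICM 4 members were lower (21.0% of all genes), Esrra (-2.30), Yy1 (-1.13), Sp1 (-0.80) and Zfp143 (-0.69), and 2 were higher (24.6% of all genes), Thap11 (0.96) and Nrf1 (0.88). Here Sp1 lost the call without any 1 DMSO library of morulae or of the ICM (adjusted p of 0.0822 to 0.11), Zfp143 without DMSO replicate 2 of morulae (0.0744), and Ppargc1b gained it without late two-cell DMSO replicate 2 or 3 (0.0357 and 0.033). Thus Nrf1 and Thap11 shared a course, high at the late two-cell stage, low in morulae and higher again in the ICM. Stage and library batch cannot be told apart in these comparisons, which also share their control libraries.

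Against the ICM, control 2iES cells had lower counts of 4 members (20.7% of all genes were lower), Ppargc1b (log2 fold change -2.57), Pprc1 (-1.13), Hcfc1 (-1.0) and Nrf1 (-0.63), and 0 were higher (21.9% of all genes), by edgeR as by DESeq2. None of the 9 had an unadjusted p under 0.05 in the upward direction. When only library totals were used for scaling, which moved the median over all genes from 0.00 to -0.33, 7 members were lower, the added ones being Yy1, Sp1 and Thap11. Without DMSO replicate 2 of the ICM only 2 remained, since Nrf1 (0.0639) and Ppargc1b (0.0515) lost the call. Ppargc1b lost it as well without DMSO replicate 2 of 2iES cells (0.0562), where Yy1 (0.00657) and Sp1 (0.00608) gained it. Some neighbours in the order of FPKM levels overlapped between their libraries, namely morulae and 2iES cells for Nrf1, 2iES cells and late two-cell embryos for Esrra, late two-cell embryos and 2iES cells for Hcfc1, and late two-cell embryos and morulae for Pprc1.

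**Figure D5:**
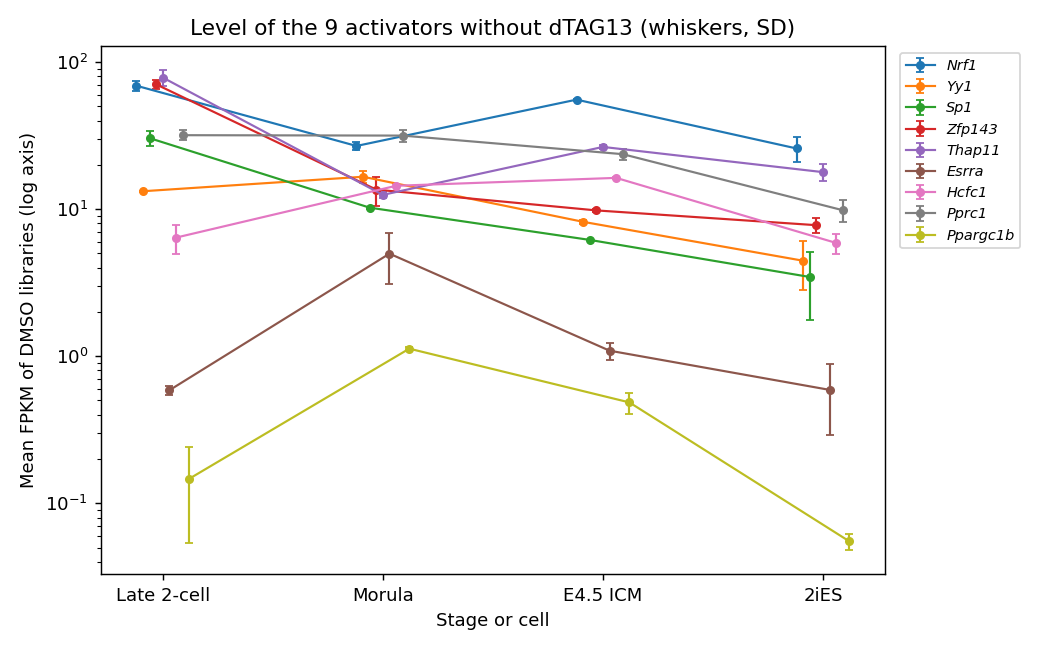
Mean FPKM of the 9 genes over the DMSO libraries (vertical axis, log scale) in the 4 kinds of sample; whiskers are the SD and lines join the means of a gene. Thap11, Zfp143 and Nrf1 lie at about 70 to 80 at the late two-cell stage, Zfp143 falls to 7.775 in 2iES cells, and Ppargc1b and Esrra stay below the other genes throughout.

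The genes whose levels followed each member most closely were sought among 9856 protein-coding genes, by Pearson's r of log2(mean TPM + 1) over the 8 groups. These points share libraries, depth and stage, so the correlations are descriptions. For Nrf1 they were Slc10a3 (r = 0.982) and Taf2 (0.981), for Yy1 Cep76 (0.995) and Znrf2 (0.990), and for Sp1 Top1 (0.997) and Ube4b (0.994). For Zfp143 they were Pcgf5 (0.998) and Abhd6 (0.996), for Thap11 Faap24 (0.993) and Haspin (0.991), and for Hcfc1 Gsk3a (0.999) and Clcn2 (0.993). For Pprc1 they were Myo1c (0.994) and Anxa7 (0.989), for Esrra Igfbp4 (0.993) and AU021092 (0.989), and for Ppargc1b Enpep (0.995) and Pdzk1ip1 (0.989). Slc10a3, the nearest to Nrf1, had a mean TPM of 8.88 with DMSO and 4.48 with dTAG13 in the ICM and of 3.85 and 0.505 in 2iES cells. Among the members themselves r over the 8 groups was highest between Sp1 and Zfp143 (0.97) and lowest between Thap11 and Esrra (-0.50).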

How the data were processed

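RNA of late two-cell embryos, morulae, E4.5 ICM and 2iES cells had been made into cDNA with the SMART-Seq v4 kit and into libraries with Nextera XT. The authors trimmed reads with Trimmomatic 0.39, mapped them to GRCm38 with STAR, quantified genes with RSEM and tested them with DESeq2. The files deposited by the authors give for each library an expected count, TPM, FPKM and a weighted transcript length of 55385 genes, where RSEM divides reads that match several genes. Other libraries of the series were not analysed here. Gene names came from GENCODE M21, which held 55144 of the identifiers without their version.

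Expected counts were rounded and scaled by TMM, and each stage was tested on its own with the quasi-likelihood F test of edgeR 4.0.16 in R 4.3.3, with limma 3.58.1. A gene entered when 10 counts were reached in a number of libraries equal to the smaller group. Benjamini-Hochberg adjustment ran over every gene tested, with a threshold of 0.05. SE is that of the log2 fold change, and intervals are at 95%. Interaction terms over all 18 libraries tested how stages differed, and control levels were compared over the 9 DMSO libraries. FPKM is shown per library. DESeq2 1.42.0, other scalings, no count filter, limma on log2(FPKM + 0.1) and log2(FPKM + 1), limma voom, a replicate block and leaving out each library were the alternatives. The scripts were tested on simulated data. Tables were handled with Python 3.11.15, pandas 2.3.3 and NumPy 2.4.6.

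The members and the gene lists were chosen with earlier results of these data known. Named are all members, Gabpa, the 2 most similar genes of each member (mean TPM of at least 5 in 1 group) and, of a list, the 2 genes with the largest change among those past the test that reach a group mean of 1 FPKM. Other list members are named only to say what a list holds. Library totals of 9457933 to 27660132 counts limit the precision for genes with few counts, such as Ppargc1b.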

Additional observations from a re-analysis of the deposited data

Results flagged for a closer look

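The effect of dTAG13 differed among the 4 stages, by the interaction terms of edgeR's quasi-likelihood test over all 18 libraries, for Nrf1 (adjusted p = 0.00106), Thap11 (adjusted p = 0.00921) and Sp1 (adjusted p = 0.0114). Nrf1 was lower with dTAG13 in 4 of 4 libraries of the ICM and 2iES cells and overlapped with DMSO in earlier embryos. Thap11 was lower in both dTAG13 libraries of 2iES cells only, and Sp1 was higher in both dTAG13 libraries of the ICM and of 2iES cells. Groups of 2 or 3 libraries were too small to test single libraries as outliers.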

How the results depend on the processing

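The number of members changed stayed at 0 at the late two-cell stage under all alternatives (0 to 0 when each library was left out). In morulae it was 0 (0 to 1 when leaving out a library) and 1 in the fit of all 18 libraries. In the ICM it was 8 (5 to 8), 5 with DESeq2, 2 in the fit of all 18 libraries and 1 with the study's thresholds. In 2iES cells it was 3 (1 to 6), 2 to 4 under the other settings and 1 with the study's thresholds. For 2iES cells against the ICM in controls it was 4 (2 to 5) and 7 with library totals. The interaction gave 3 (2 to 4). For weighted length, using effective lengths gave ratios of 1.002 for Thap11 and 1.042 for Ppargc1b. Over single genes, 539 values under the alternatives and 777 when leaving out a library kept their direction and their side of the threshold, while 18 and 16 gained the threshold, 14 and 29 lost it, and 30 and 20 turned their sign.

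Signs turned for log2 fold changes that had not passed the test, and the cause was not tested. At the late two-cell stage Hcfc1 became 0.03 with library totals, 0.07 with the upper quartile and 0.16 and 0.14 with limma, and Ppargc1b 0.06, 0.10, 0.10 and 0.01 under the same settings. In morulae limma gave Nrf1 -0.01 and -0.01, Thap11 -0.05 and -0.04 and Ppargc1b 0.00 and 0.01, library totals gave Thap11 -0.01, and Yy1 was 0.01 with RLE factors and with DESeq2, 0.02 and 0.02 with limma and 0.08 in the fit of all 18 libraries. In the ICM Thap11 was 0.06 with library totals, 0.10 with the upper quartile, 0.05 and 0.05 with limma and 0.00 in the fit of all 18 libraries. The difference of Nrf1 between 2iES cells and the ICM was -0.00 with library totals and -0.03 without the count filter. In controls Pprc1 from the morula to the ICM was 0.00 and Zfp143 from the ICM to 2iES cells -0.27 with library totals.

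Leaving out a library gave sign changes within these ranges. They were -0.18 to 0.12 for Hcfc1, -0.09 to 0.19 for Pprc1 and -0.33 to 0.61 for Ppargc1b at the late two-cell stage. In morulae they were -0.16 to 0.30 for Nrf1, -0.11 to 0.11 for Yy1, -0.25 to 0.31 for Thap11 and -0.36 to 0.09 for Ppargc1b. They were -0.08 to 0.10 for Thap11 in the ICM, -0.33 to 0.79 for Esrra in 2iES cells and -0.05 to 0.19 for the Nrf1 difference between 2iES cells and the ICM. In controls they were -0.02 to 0.10 for Hcfc1 from the morula to the ICM, and -0.97 to 0.08 for Sp1 and -0.23 to 0.05 for Thap11 from the ICM to 2iES cells. The upper quartile moved the median over all genes to 0.14 at the late two-cell stage, 0.11 in the ICM and 0.21 in 2iES cells. It also moved the split of calls at the late two-cell stage from 1262 lower and 230 higher to 957 and 482, and library totals moved that of morulae from 28 and 22 to 88 and 40.

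Same-numbered libraries deviated together weakly or not at all, so the numbers were not taken as pairs. The r was 0.056, 0.123 and 0.104 at the late two-cell stage, 0.030 in morulae, -0.046 in the ICM and -0.241 in 2iES cells. Of the late two-cell values, 0.123 and 0.104 lay above the minimum of 0.1 set for a pair and 0.056 lay below it. With the replicate block 0, 0, 8 and 4 members changed at the 4 stages in order of development and 3 in the interaction, the added one being Yy1 in 2iES cells, and Ppargc1b at the late two-cell stage was 0.13. The block moved the calls over all genes in morulae from 50 to 392 and at the late two-cell stage from 1492 to 1580, in the ICM from 12174 to 11966 and in 2iES cells from 8469 to 8159. Pairing the 2iES libraries crosswise, chosen after seeing the data, gave 8917 calls.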
